A study of Mus musculus with 12 samples.

Results

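The 9 genes described here encode acute phase and complement proteins: Lcn2, Saa3, Hp, Orm1, Ptx3, C3, Cfb, Serping1 and Cp. They are 9 of 55492 features in the deposited count table, and all 9 were among the 15052 genes with enough reads to be tested. The genes were chosen on their measured values in these same 12 libraries, so their levels and differences are given as a description, and no p-value of a member is printed. Each matched 1 row of the table by its gene name.

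Total RNA was sequenced from CCN6KOT, labelled as primary cells of a spindle metaplastic breast tumour of the mouse, with 3 libraries in each of 4 groups. All cells received lentivirus and were selected with puromycin. The control group carries a control virus (titles with PPGS-Vector), and the DNTCF4 group carries the DNTCF4 construct with a vector. The other two groups carry DNTCF4 together with an EZH2 construct (DNTCF4-EZH2) or with a construct named SET (DNTCF4-SET). DNTCF4 is a dominant negative form of TCF4, the transcription factor through which beta-catenin acts on Wnt target genes, and EZH2 is the histone H3 lysine methyltransferase of the PRC2 repressor complex. The labels do not expand SET, do not say how the EZH2 and SET lines were derived or whether replicates were separate cultures, and name 1 cell line, so each p-value reflects the scatter among these libraries alone, which may be technical.

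The counts for the constructs' genes were as follows. Ezh2 stood at 57.9 ± 1.53 CPM (counts relative to library size, mean ± SD, n = 3) in the control group, 65.4 ± 3.1 with DNTCF4, 449.9 ± 20.5 with DNTCF4-EZH2 and 546 ± 33.1 with DNTCF4-SET. Ezh2 was therefore high in both groups with a further construct (adjusted p = 2.03e-14 and 1.12e-14 against DNTCF4), and the mouse gene Set was not: it fell from 617 ± 43.5 CPM with DNTCF4 to 551 ± 17.2 with DNTCF4-SET (adjusted p = 0.0144, edgeR quasi-likelihood test). Tcf7l2, which encodes TCF4, rose from 11 ± 2.48 to 39.8 ± 2.41 CPM with DNTCF4 (adjusted p = 1.34e-09). A library held 23597545 to 33999982 counts, so a gene with no count lies below 0.0882 to 0.127 CPM, and the biological coefficient of variation was 5.17%. DNTCF4 replicate 1 stood apart from the other two libraries of its group (chi-square per degree of freedom 20.01 and 12.7, against 3.28 between those 2), and DNTCF4-EZH2 replicate 1 differed most from replicate 2 (16.0).

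Acute phase proteins are plasma proteins whose synthesis, mainly in the liver, changes with injury or infection under interleukin 1 and interleukin 6, acting through NF-kappaB, C/EBP and STAT3. Many are also made outside the liver by epithelial cells, fibroblasts and macrophages. Complement is a chain of proteases and their substrates in which C3 is the central component. Cleaved C3 binds factor B to form the convertase of the alternative pathway, and inhibitors such as C1 inhibitor (Serping1) limit the chain.

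Promoter sequence from RefSeq (GRCm38.p6, 250 bases before a gene's start and up to 50 after) was at hand for 5 members: Lcn2, Saa3, Ptx3, C3 and Cp. Only these 5 of the 9 members had such an entry, and they differ in pattern across the groups. Each was found to have 1 window with a match to the C/EBP motif TTGCNNAA, searched on both strands. Of 32851 RefSeq promoters, 9.56% hold such a match. That share counts windows and not genes, and the members were chosen on their values, so nothing is read from the comparison. The 30 bases around each match follow, 5′ to 3′ on the gene's strand, with the match in capitals. The Lcn2 stretch lies 216 bases before its RefSeq start at chr2:32387937-32387966, the Saa3 stretch 99 bases before at chr7:46715757-46715786, the Ptx3 stretch 57 before at chr3:66219819-66219848, the C3 stretch 45 before at chr17:57228163-57228192, and the Cp stretch 70 before at chr3:19957168-19957197, each counted to the first base of the match.
Lcn2: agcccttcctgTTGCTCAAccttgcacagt
Saa3: ggtaagtgggaTTATGCAAgatcaaacagg
Ptx3: gtggtttaacaTTGTGCAAcctcttcagct
C3: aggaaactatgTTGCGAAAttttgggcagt
Cp: attagttactcTTTTGCAAcattaaattgt
The match reads on the gene's strand in Lcn2 and C3 and on the opposite strand in Saa3, Ptx3 and Cp. A further Cp window held no match. None of the 6 windows held a match to the NF-kappaB motif (in 7.25% of all promoters), to the STAT motif TTCNNNGAA (7.02%) or to the TCF/LEF motifs CTTTGAA and CTTTGAT (7.48%). The motifs were searched separately, so overlapping matches of different motifs would each have counted. Other spellings of these motifs were not searched, and a match describes letters in the window only. The Lcn2 and Cp stretches lie inside the extent that GENCODE gives those genes. The bases upstream of the annotated gene are given in full for Saa3 and C3, both of which were higher with DNTCF4 and higher again with a further construct. The Saa3 stretch is chr7:46715701-46715926 and the C3 stretch is chr17:57228137-57228386, both on the minus strand.
Saa3: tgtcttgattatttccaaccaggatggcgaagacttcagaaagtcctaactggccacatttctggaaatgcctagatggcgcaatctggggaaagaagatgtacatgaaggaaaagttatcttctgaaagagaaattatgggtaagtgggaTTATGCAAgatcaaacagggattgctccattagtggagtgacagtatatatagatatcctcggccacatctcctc
C3: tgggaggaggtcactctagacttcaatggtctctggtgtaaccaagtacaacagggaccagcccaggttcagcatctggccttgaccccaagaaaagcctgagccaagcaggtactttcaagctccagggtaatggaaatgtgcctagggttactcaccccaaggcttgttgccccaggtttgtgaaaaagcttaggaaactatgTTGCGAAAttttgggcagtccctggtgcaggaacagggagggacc

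Across the 9 genes, 7 were called higher and 1 lower with DNTCF4 than with the control vector (adjusted p under 0.05), and Ptx3 did not pass, where 29.5% of all tested genes were called higher and 28% lower. The largest differences were those of Lcn2 (29.9-fold), Saa3 (14.1-fold) and Orm1 (5.66-fold), and Cp was 2.8-fold lower. With EZH2 or SET added to DNTCF4, Saa3, Hp, Orm1, C3 and Serping1 were higher still, Cp was partly back towards the control level, and Lcn2 and Cfb stayed within 1.1-fold of the DNTCF4 level. Ptx3 overlapped in 3 groups and was 1.19-fold higher with DNTCF4-SET than with DNTCF4. Groups without overlap were common: of 15052 tested genes, 4552 lay wholly higher and 4371 wholly lower with DNTCF4 than in the control. The numbers were 2998 and 2885 for EZH2 over DNTCF4, 2742 and 2851 for SET over DNTCF4, and 2482 and 2303 for EZH2 against SET. Non-overlap of a member is therefore given as a description only. The summed level of the 9 genes was 578.6 ± 10.3 CPM in the control group, 1229.9 ± 42.4 with DNTCF4, 1631 ± 21.7 with DNTCF4-EZH2 and 1637 ± 18 with DNTCF4-SET. Fewer cells expressing a gene and less RNA per cell cannot be told apart in these bulk libraries.

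**Figure D1:**
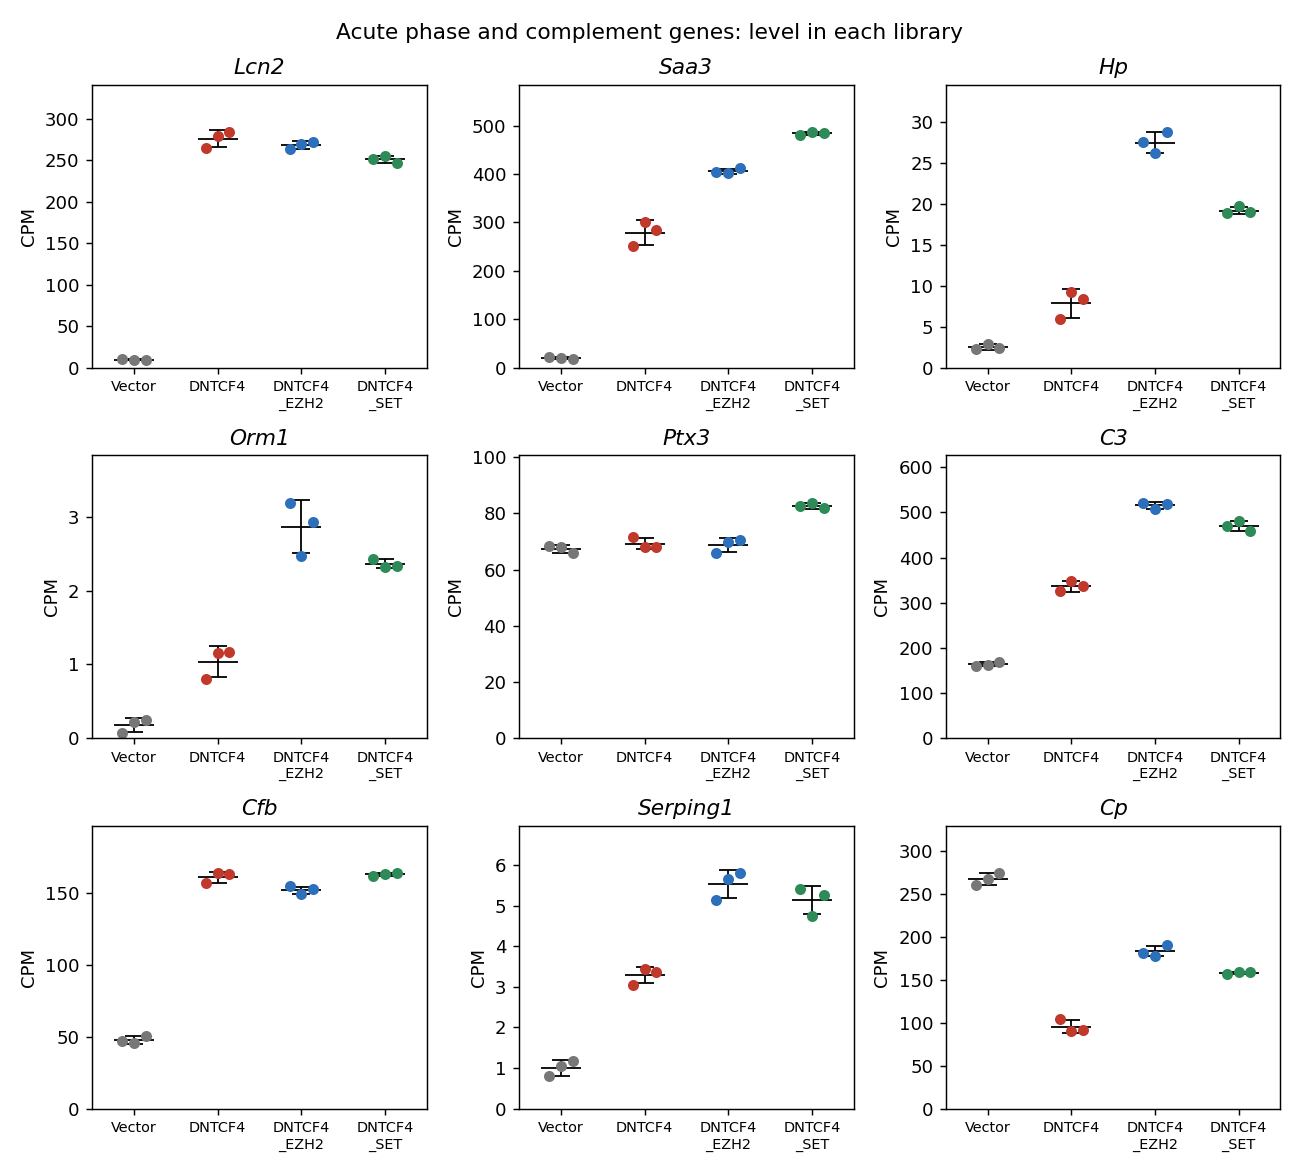
Level of each of the 9 genes in CPM (vertical axis, starting at 0, a scale per gene) in the 4 groups (horizontal axis), with points for the 3 libraries and bars for the mean and SD. Lcn2 and Cfb stand at about one height in the 3 groups with DNTCF4, Saa3, Hp, Orm1, C3 and Serping1 stand higher with a second construct, Cp is lowest with DNTCF4 alone, and Ptx3 is highest with DNTCF4-SET.

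Lcn2 (ENSMUSG00000026822, GRCm38 chr2:32384633-32388252, minus strand) encodes lipocalin 2, which binds bacterial siderophores and withholds iron. It was at 9.95, 9.13 and 8.64 CPM in the 3 control libraries. With DNTCF4 it was at 265, 279.6 and 284 CPM. The DNTCF4-EZH2 libraries held 263, 269.7 and 272 CPM, and the DNTCF4-SET libraries 252, 255 and 247 CPM. All 9 libraries with DNTCF4 lay far above the control libraries, and those with EZH2 overlapped those with DNTCF4 alone. The difference between DNTCF4 and the control was 4.90 on the log2 scale (SE 0.052), the 56th highest of 15052 tested genes. With EZH2 the difference from DNTCF4 was -0.04 (SE 0.038) and with SET -0.14 (SE 0.039). The SET libraries all lay below the DNTCF4 libraries, by 1.1-fold, a call that was lost in 4 of 12 other settings.

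Saa3 (ENSMUSG00000040026, chr7:46711998-46715700, minus strand) encodes serum amyloid A3, the form of this apolipoprotein made mainly outside the liver. Control libraries held 21.4, 19.2 and 18.5 CPM, and DNTCF4 libraries 250.4, 301 and 285 CPM. In the DNTCF4-EZH2 libraries the level was 405, 402 and 412 CPM, and in the DNTCF4-SET libraries 480.2, 487 and 486 CPM. The 4 groups did not overlap at any point, so that the order control, DNTCF4, EZH2, SET held library by library. The log2 difference was 3.82 (SE 0.067) for DNTCF4 against control, 0.54 (SE 0.055) for EZH2 over DNTCF4 and 0.80 (SE 0.055) for SET over DNTCF4. Between the EZH2 and SET groups it was -0.25 (SE 0.055).

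Hp (ENSMUSG00000031722, chr8:109575128-109579172, minus strand) encodes haptoglobin, which binds free haemoglobin. It was low in the control libraries, at 2.22, 2.92 and 2.35 CPM, and stood at 5.91, 9.24 and 8.39 CPM with DNTCF4. With DNTCF4-EZH2 it reached 27.6, 26.2 and 28.8 CPM, and with DNTCF4-SET 18.9, 19.7 and 19.0 CPM. No 2 groups overlapped, and the EZH2 group was the highest. Hp was the member with the largest further difference: the log2 value was 1.65 (SE 0.15) for DNTCF4 against control, 1.80 (SE 0.11) for EZH2 over DNTCF4 and 1.28 (SE 0.11) for SET over DNTCF4. Without DNTCF4 replicate 1, the lowest of its group, these were 1.81, 1.64 and 1.11.

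Orm1 (ENSMUSG00000039196, chr4:63344560-63348163, plus strand) encodes orosomucoid 1, a plasma glycoprotein that carries basic drugs and steroids. It was the lowest member, with 2, 6 and 6 counts in the control libraries, or 0.0754, 0.222 and 0.252 CPM. DNTCF4 libraries held 0.801, 1.15 and 1.17 CPM, DNTCF4-EZH2 libraries 3.2, 2.48 and 2.93 CPM, and DNTCF4-SET libraries 2.43, 2.33 and 2.34 CPM. Each library with DNTCF4 lay above each control library, and the libraries with EZH2 or SET lay above those with DNTCF4 alone. The 89 counts of the DNTCF4 group against 14 in the control group give a ratio of 5.8, with a 95% interval of 3.28 to 11 that covers counting error only. Over DNTCF4, the log2 difference was 1.46 (SE 0.2) with EZH2 and 1.18 (SE 0.2) with SET. Orm2 and Orm3, its near-identical neighbours, had 7 and 3 counts in all 12 libraries together, and how reads were shared among the copies rests on the estimation model.

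Ptx3 (ENSMUSG00000027832, chr3:66219910-66225805, plus strand) encodes pentraxin 3, a pattern recognition protein that binds C1q. It was in the control libraries at 68.3, 68.0 and 65.8 CPM. It was at 71.6, 68.2 and 67.9 CPM with DNTCF4 and at 65.9, 69.8 and 70.5 CPM with DNTCF4-EZH2, so these 3 groups overlapped. The DNTCF4-SET libraries, at 82.5, 83.9 and 81.8 CPM, all lay above the other 9. The log2 difference was 0.04 (SE 0.041) for DNTCF4 against control, -0.01 (SE 0.04) for EZH2 over DNTCF4 and 0.26 (SE 0.04) for SET over DNTCF4. Ptx3 lies within Veph1 on the opposite strand, and Veph1 had 732 counts over all libraries against 24795 for Ptx3. The use of strand in counting was not given in the sources used here.

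C3 (ENSMUSG00000024164, chr17:57203970-57228136, minus strand) encodes complement component 3, the hub on which all activation routes meet. It was abundant in each group, with 160.4, 163 and 169 CPM in the control libraries and 325, 348 and 337 CPM with DNTCF4. The DNTCF4-EZH2 libraries held 522, 507 and 519.6 CPM, and the DNTCF4-SET libraries 471, 481 and 458 CPM. The groups were fully separate, in the order control, DNTCF4, SET, EZH2. DNTCF4 exceeded the control by 1.04 on the log2 scale (SE 0.036), EZH2 exceeded DNTCF4 by 0.62 (SE 0.035), and SET exceeded DNTCF4 by 0.48 (SE 0.035). The difference between EZH2 and SET was 0.14 (SE 0.035), and 9 of 12 other settings did not call it.

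Cfb (ENSMUSG00000090231, chr17:34856374-34862518, minus strand) encodes factor B, the protease that joins C3b in the alternative pathway convertase. Control libraries were at 47.1, 45.6 and 50.5 CPM. The DNTCF4 libraries held 157, 164 and 163 CPM, the DNTCF4-EZH2 libraries 155, 149.7 and 153 CPM, and the DNTCF4-SET libraries 162, 163 and 164 CPM. Cfb was thus 3.38-fold higher with DNTCF4 and, like Lcn2 and unlike C3, was not higher again with a second construct. The libraries with EZH2 lay just below those with DNTCF4 alone, and those with SET overlapped them. The log2 difference was 1.76 (SE 0.041) for DNTCF4 against control, -0.08 (SE 0.038) for EZH2 over DNTCF4 and 0.02 (SE 0.038) for SET over DNTCF4. Its neighbour Gm20547 overlaps it on the same strand but had 69 counts in all against 46053.

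Serping1 (ENSMUSG00000023224, chr2:84765387-84775444, minus strand) encodes C1 inhibitor, which blocks the C1 proteases and plasma kallikrein. It was at 0.791, 1.04 and 1.17 CPM in the control libraries and at 3.05, 3.44 and 3.37 CPM with DNTCF4. The DNTCF4-EZH2 libraries were at 5.13, 5.65 and 5.8 CPM and the DNTCF4-SET libraries at 5.4, 4.74 and 5.25 CPM. The groups with a second construct overlapped each other and lay above the rest. The log2 difference was 1.72 (SE 0.15) for DNTCF4 against control, 0.74 (SE 0.11) for EZH2 over DNTCF4 and 0.64 (SE 0.11) for SET over DNTCF4.

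Cp (ENSMUSG00000003617, chr3:19957054-20009145, plus strand) encodes ceruloplasmin, a copper-carrying ferroxidase, and was the one member lower with DNTCF4. The control libraries held 260, 267 and 274 CPM and the DNTCF4 libraries 104, 90.5 and 91.6 CPM. With DNTCF4-EZH2 Cp was at 181, 178 and 190 CPM, and with DNTCF4-SET at 157, 159 and 159 CPM. The groups did not overlap, and both groups with a second construct lay between DNTCF4 and the control. On the log2 scale Cp differed by -1.49 (SE 0.048) between DNTCF4 and control, by 0.94 (SE 0.048) with EZH2 over DNTCF4 and by 0.73 (SE 0.048) with SET over DNTCF4. Against the control it was still lower, by -0.54 (SE 0.047) with EZH2 and -0.75 (SE 0.047) with SET. Hps3 overlaps Cp on the opposite strand, with 6404 counts against 59841.

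**Figure D2:**
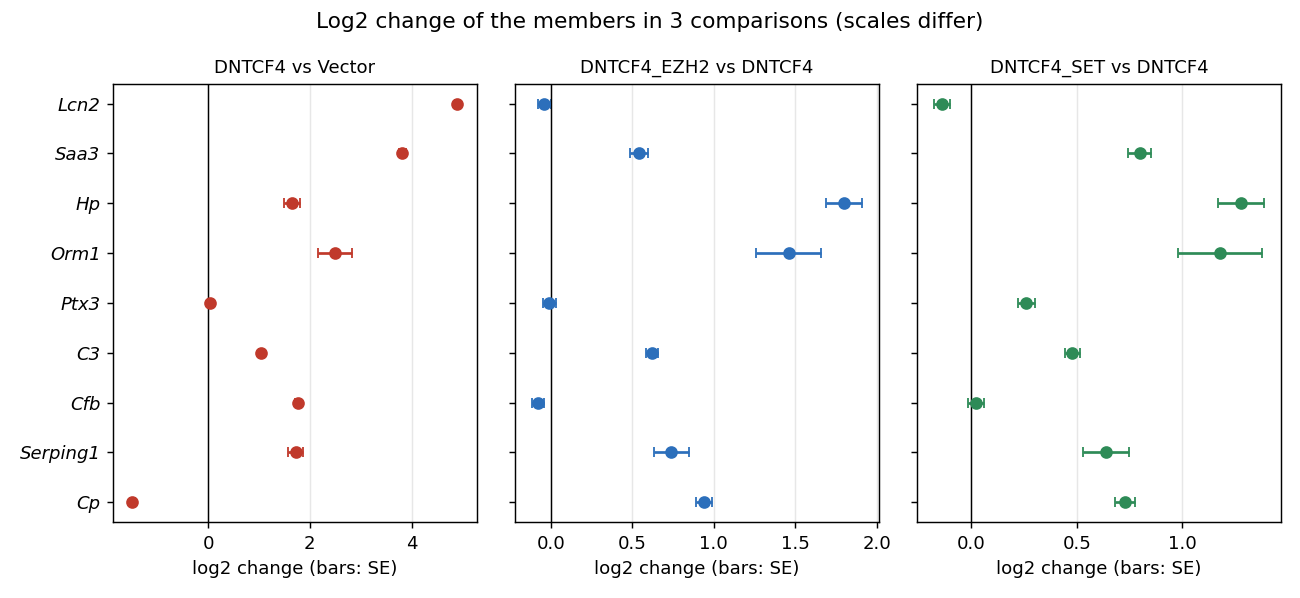
Log2 change of each gene (horizontal axis, a scale per panel) with its standard error, for DNTCF4 against the control, for DNTCF4-EZH2 against DNTCF4 and for DNTCF4-SET against DNTCF4. Lcn2 and Saa3 lie farthest to the right in the first panel (4.90 and 3.82) and Cp to the left (-1.49), and Hp and Orm1 lie farthest to the right in the other two.

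Counted in the fit over all genes (adjusted p under 0.05), 7 members were higher and 1 lower with DNTCF4 than with the control, where 29.5% of the tested genes were called higher and 28% lower. The median log2 difference of the 9 was 1.72, against 0.007 over all tested genes. With EZH2 over DNTCF4, 6 members were called higher and Lcn2, Ptx3 and Cfb did not pass, where 13% of all genes were called higher and 12.5% lower, with a median of 0.62. With SET over DNTCF4, 7 were called higher and 1 lower, against 12.7% and 13.3%, with a median of 0.64. EZH2 against SET gave 3 higher (Hp, C3 and Cp) and 2 lower (Saa3 and Ptx3), against 3% and 2.17%. Leaving out any 1 of these 6 libraries took the 5 to 2 or 3. Against the control, EZH2 gave 7 higher and 1 lower (28.7% and 29% of all genes), and SET gave 8 higher and 1 lower (28.1% and 29.9%). Because the members were chosen on these comparisons, nothing is read from these counts. Comparisons that share the DNTCF4 or the control libraries are not independent of each other.

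DNTCF4 replicate 1 was the lowest library of its group for 7 of the 9 members and the highest for 2, Ptx3 and Cp. The spread within the group was largest for Hp, whose highest library stood 1.56 times above the lowest, and for Orm1 (1.46 times). Without that library the number of members called was 8 for DNTCF4 against control and 8 for SET over DNTCF4, and 7 in place of 6 for EZH2 over DNTCF4, the added gene being Cfb at -0.10 (chosen for mention after its value was seen).

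Levels of different genes were compared per kilobase of the principal transcript, which puts genes of unlike length on one scale. In the control group Cp was highest at 66.2 ± 1.73 CPM per kb. Ptx3 (35.5 ± 0.726) and Saa3 (35.5 ± 2.75) followed with overlapping libraries, then C3 at 31.9 ± 0.859, Cfb at 17.4 ± 0.916 and Lcn2 at 10.1 ± 0.723. Hp (1.86 ± 0.277), Serping1 (0.566 ± 0.11) and Orm1 (0.236 ± 0.122) were the lowest. With DNTCF4 the order was different, with Saa3 first at 503 ± 46.8 and Lcn2 second at 302 ± 10.8 CPM per kb, and Cp sixth of the 9 at 23.6 ± 1.84. Saa3 and Lcn2 also led with DNTCF4-EZH2 (732 ± 9.02 and 293 ± 5.33) and with DNTCF4-SET (873 ± 6.42 and 275 ± 4.86). Orm1 and Serping1 were lowest in both of those groups and overlapped. Where length was taken over all annotated exons instead, C3 ranked first and Saa3 ranked 5 in the control group, and Saa3 and Lcn2 still ranked first and second in the 3 groups with DNTCF4.

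**Figure D3:**
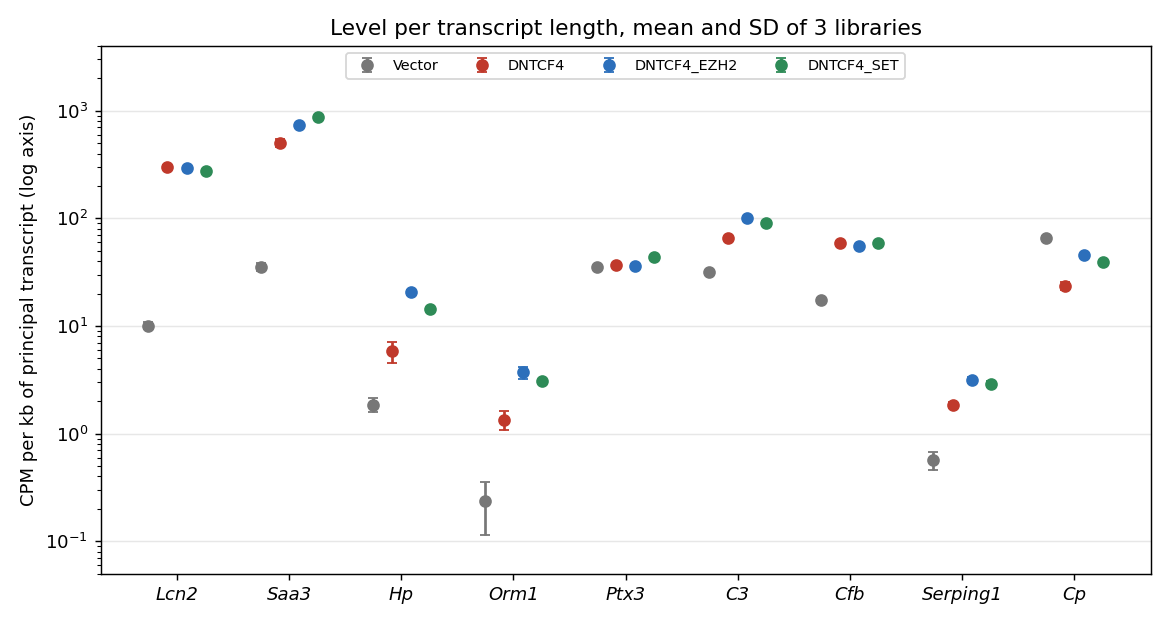
Level per kilobase of the principal transcript (vertical axis, log scale, CPM per kb) for the 9 genes, with the mean and SD of 3 libraries in each group. Saa3 and Lcn2 are at the top in the 3 groups with DNTCF4 (503 and 302 CPM per kb with DNTCF4 alone), and Cp is highest in the control group (66.2).

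For each member, the 2 other tested genes with the most similar profile over the 12 libraries were found by Pearson's r of log2 CPM among 11705 genes, as a description. The 12 points share the differences between the 4 groups, so any gene with the same order of groups scores high. Lcn2 was most like Col24a1 (r = 0.9997), a fibrillar collagen at 4.836 CPM in the control and 85.75 with DNTCF4, and Nos2 (0.9987), the inducible nitric oxide synthase. Cfb, which like Lcn2 was not higher again with a second construct, was closest to Itga2 (0.9991) and Ddah1 (0.999). Saa3 was closest to Lmo4 and Ptger3 (0.9981 for both), the latter a prostaglandin E2 receptor at 2.34 CPM in the control, 30.5 with DNTCF4, 40.13 with EZH2 and 44.55 with SET. Hp resembled the basement membrane collagens Col4a2 (0.9948) and Col4a1 (0.9917). Col5a3 was among the closest for both C3 (0.9983) and Orm1 (0.9852), and Atp2b4, a plasma membrane calcium pump, for both Orm1 (0.9877) and Serping1 (0.9947). Cp was most like Lgmn (0.99) and Col12a1 (0.9891), both lowest with DNTCF4. Ptx3 had no close partner by this measure, with Cln8 highest at 0.9254.

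To place the members in their pathways, 139 further genes were listed by function, of which 73 were tested and 66 had too few reads, 18 of them with no count at all. Of the 73, 31 rose and 27 fell with DNTCF4 (edgeR quasi-likelihood test, Benjamini-Hochberg over 15052 genes), where 29.5% and 28% of all genes did. With EZH2 over DNTCF4, 26 rose and 8 fell, where 13% and 12.5% of all genes did. With SET over DNTCF4, 21 rose and 11 fell, where 12.7% and 13.3% did. EZH2 and SET differed for 8 of them, 4 in each direction, where 3% of all genes were higher and 2.17% lower. Without DNTCF4-EZH2 replicate 2 or DNTCF4-SET replicate 1 the 8 became 5. These shares of all genes also apply to the counts of each list below. Several of the genes named next have near-identical copies (the Saa, Serpina3, C1r, C1s, C4, Cd55 and Cd59 genes), so their counts depend on how reads were shared.

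Among 33 other acute phase genes, 9 were tested, and with DNTCF4 4 rose, 1 fell and 4 did not pass, with a median log2 difference of 0.93. Saa1, a liver serum amyloid A, had 9 counts in the control group and 75 with DNTCF4, at 0.264, 0.037 and 0.0419 against 0.763, 1.15 and 0.696 CPM (adjusted p = 5.75e-05). Serpina3n, a secreted serine protease inhibitor, rose from 1.36 ± 0.325 to 14.7 ± 1.66 CPM, or 10.9-fold (adjusted p = 1.17e-11). Steap4, a metalloreductase of iron and copper, rose 10.5-fold, from 0.498 ± 0.276 to 5.35 ± 0.265 CPM (adjusted p = 1.79e-09). Serpina3f, named after its values were seen, had no count in the control and 21 with DNTCF4, at least 6.39-fold higher against a floor of 3 counts over the group. Lbp, the lipopolysaccharide binding protein, went the other way, from 57.7 ± 5.39 to 20.2 ± 2.72 CPM (adjusted p = 4.92e-10). With EZH2 over DNTCF4, 4 of the 9 rose and 5 did not pass. With SET, 4 rose, 4 did not pass and 1 fell, Cd14 (-0.32), named after its values were seen. The 4 that rose in both were Saa1, Serpina3n, Steap4 and Lbp. Their log2 differences were 1.33, 0.38, 0.92 and 0.86 with EZH2, and 1.09, 0.53, 0.99 and 0.42 with SET (adjusted p from 2.11e-06 to 0.00702). Lbp thus resembled Cp in being low with DNTCF4 and between DNTCF4 and control with a second construct. Of 7 negative acute phase genes, which liver makes less of in inflammation, Trf (transferrin) alone was tested, and it rose 5.12-fold, from 15.1 ± 1.22 to 77.5 ± 1.83 CPM (adjusted p = 1.8e-14). Crp had no count in any library.

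Complement activation genes other than C3 and Cfb were divided: of 28 listed, 14 were tested, and with DNTCF4 4 rose and 6 fell, with a median of -0.18. Those that fell were C1ra, C1s1, C4b and Masp1, of the classical and lectin routes, and, named after their values were seen, C1rl and C1s2. C4b, the complement component 4 gene, fell 7.3-fold, from 54.8 ± 2.54 to 7.48 ± 0.379 CPM (adjusted p = 3.71e-14), and its differences from DNTCF4 with EZH2 (0.03, SE 0.081) and SET (0.09, SE 0.082) did not pass. C1ra and C1s1, the proteases of C1, fell from 124 ± 4.41 to 64.6 ± 3.66 and from 143 ± 2.21 to 90.6 ± 4.08 CPM, and Masp1, a protease of the lectin route, from 54.3 ± 0.187 to 32.6 ± 1.26 CPM (adjusted p from 1.33e-10 to 1.35e-09). The 4 that rose, named after their values were seen, were Hc (1.55 on the log2 scale), which encodes C5, Fcna (1.25), a ficolin, Cfp (0.74), which encodes properdin, and C4a (0.53), all at 6.23 CPM or less. C2, the classical counterpart of factor B, stood at 71.5 ± 2.58 in the control and 72.3 ± 3.1 CPM with DNTCF4 (log2 difference 0.02, SE 0.046), and rose to 85.2 ± 0.815 with EZH2 and 87.7 ± 4.18 with SET (adjusted p = 0.00139 and 0.000405). With EZH2 over DNTCF4, 5 rose and 9 did not pass, and with SET, 3 rose and 2 fell. C1qa and C1qb had no count, and C6 and C7 had 2 and 1 in all libraries together, each below the count needed for a test.

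Of 17 complement regulators listed beside Serping1, 8 were tested, with 4 higher and 2 lower with DNTCF4 and a median of 0.18, which is the same with Cd55 at its bound. Susd4, a membrane inhibitor, fell, from 10.1 ± 0.624 to 6.82 ± 0.287 CPM (adjusted p = 3.45e-05). Cd55, decay accelerating factor, had no count in the control libraries and 18, 10 and 16 with DNTCF4, at least 13.4-fold higher against a floor of 3 counts over the group. Cd59a, which blocks the membrane attack complex, rose from 4.41 ± 0.885 to 8.27 ± 0.785 CPM (adjusted p = 5.19e-05). Clu (clusterin) rose by 0.12 with DNTCF4 and by a further 0.79 with EZH2 and 0.66 with SET (adjusted p = 0.0413, 6.84e-09 and 8.87e-08). Cfi, the protease that cleaves C3b, had 2 counts in all 12 libraries.

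Receptors of the complement fragments were nearly silent. Of 8 listed, Itgb2 alone was tested, and it fell from 2.51 ± 0.603 to 1.62 ± 0.222 CPM with DNTCF4 (adjusted p = 0.0163). C3ar1 and C5ar1 had 29 and 3 counts over the 12 libraries.

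Of 19 receptors and partners of the members, 17 were tested, and 4 rose and 11 fell with DNTCF4, with a median of -0.37. The lipocalin 2 receptor Slc22a17 rose from 4.03 ± 0.436 to 13 ± 1.3 CPM (adjusted p = 6.49e-10), and its other receptor, Lrp2, fell from 18.3 ± 0.468 to 11.8 ± 0.579 CPM (adjusted p = 4.85e-07). Mmp9, the gelatinase that binds lipocalin 2, rose 19.1-fold, from 0.222 ± 0.0714 to 4.26 ± 0.768 CPM (adjusted p = 3.67e-10). Tlr2, a receptor for serum amyloid A, rose from 12.2 ± 0.617 to 34 ± 2.04 CPM (adjusted p = 1.87e-11). Lrp1, an uptake receptor for complexes of haemopexin, which is not a member, fell from 602 ± 7.81 to 466 ± 27.6 CPM (adjusted p = 7.8e-06). Lrp1 was at 671 ± 26.7 CPM with EZH2 and 709 ± 36.3 with SET (adjusted p = 9.69e-07 and 2.77e-07 over DNTCF4). Kng1, the kininogen of the system that C1 inhibitor restrains, fell 5.58-fold, from 4.69 ± 0.32 to 0.841 ± 0.0753 CPM (adjusted p = 4.15e-09). With EZH2 over DNTCF4, 7 rose and 1 fell, and with SET, 6 rose and 1 fell.

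Of 27 inducers and transcription factors of the acute phase response, 23 were tested, and with DNTCF4 14 rose and 6 fell, with a median of 0.32. Il1a, which encodes interleukin 1 alpha, was at 0.452, 0.444 and 0.168 CPM in the control and at 80.5, 71.0 and 71.1 CPM with DNTCF4, a log2 difference of 7.66 (SE 0.13, adjusted p = 1.06e-15). Il6 rose 6.13-fold, from 2.83 ± 0.0695 to 17.4 ± 2.14 CPM (adjusted p = 2.26e-11), Lif rose 2.47-fold from 97.4 ± 0.702 to 240.2 ± 5.85 CPM (adjusted p = 1.22e-13), and Nfkbiz, an NF-kappaB cofactor for Lcn2 in other cells, rose 3.5-fold from 59.3 ± 1.45 to 207 ± 2.4 CPM (adjusted p = 2.73e-15). With EZH2 over DNTCF4, 5 of the list rose, 7 fell and 11 did not pass, with a median of -0.05. With SET, 4 rose, 6 fell and 13 did not pass, with a median of 0.01. Cebpd, Il1rap, Il6st and Osmr, named after their values were seen, rose with both (log2 0.14 to 0.23). Il1a, Il6, Lif and Nfkbiz were lower with EZH2: over DNTCF4, the log2 differences were -1.01, -0.52, -0.52 and -0.28 in that order (adjusted p from 3.18e-08 to 0.000387). With SET over DNTCF4 the log2 differences were -0.63 for Il1a, -0.47 for Lif and -0.32 for Nfkbiz (adjusted p from 1.47e-07 to 6.58e-06), and Il6 did not pass (0.18, SE 0.083). In these same comparisons Saa3, Hp, Orm1, C3, Serping1 and Cp were higher. Lcn2 (-0.04 with EZH2 and -0.14 with SET) and Cfb (-0.08 and 0.02) were not, and Ptx3 was higher with SET only. A link between the inducers and the members was not tested. Il1b had 19 counts in all libraries.

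**Figure D4:**
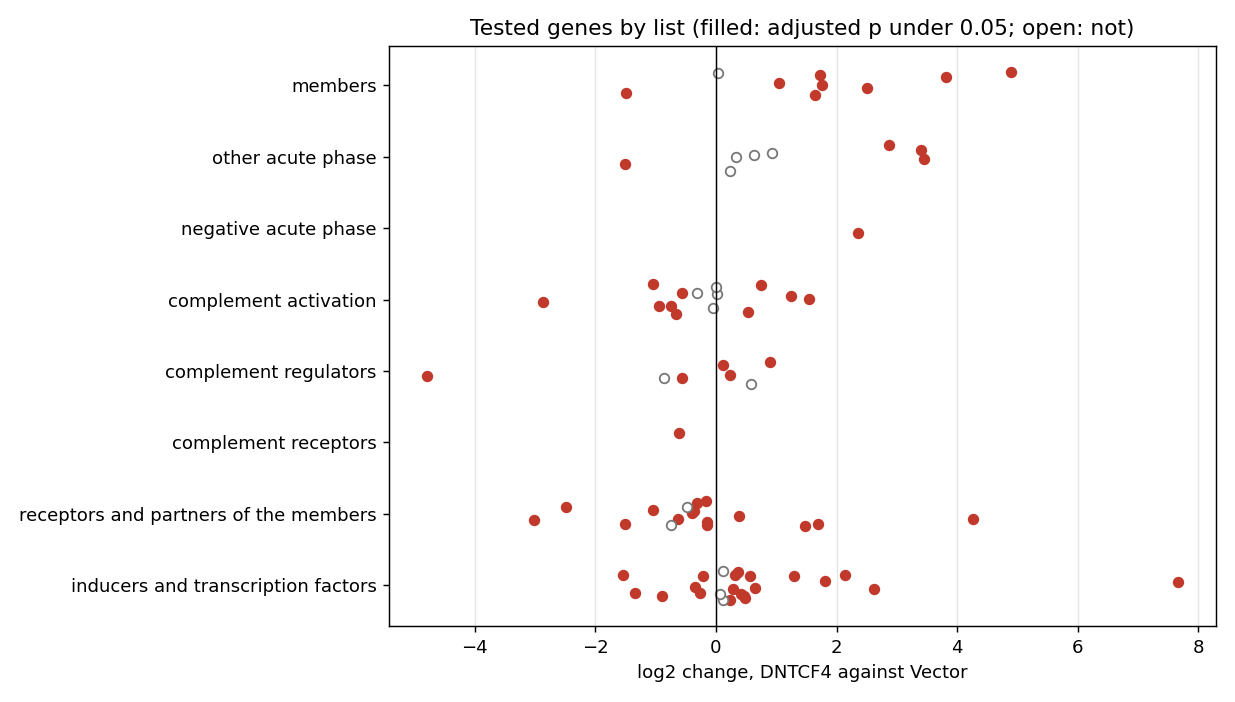
Log2 change with DNTCF4 against the control (horizontal axis) for the tested genes of each list (rows; vertical scatter within a row has no meaning), filled where the adjusted p is under 0.05. Cd55 and Serpina3f, which had no count in the control, are left out. Il1a stands at 7.66, and complement activation genes lie on both sides of 0.

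Markers of other cell types were read in the same libraries. The 9 hepatocyte markers summed to 0.179 to 0.678 CPM, with Ttr at 0 and Alb at 4 counts in all, and the 7 lymphocyte markers to 0.0763 to 1.22 CPM, with Cd3d at 0. The 10 macrophage markers summed to 54.9 to 59 CPM in the control, 48.3 to 69.1 with DNTCF4, 69.6 to 74.9 with EZH2 and 62.5 to 71.3 with SET, nearly all from Cd68, while Tyrobp had no count and Ptprc 38 in all. The 10 neutrophil markers summed to 11.7 to 12.7 CPM in the control and to 40.4 to 52 CPM in the 9 libraries with DNTCF4, nearly all from S100a8 (11 CPM in the control, 48.7 with DNTCF4, 41.9 with EZH2 and 46.3 with SET). Elane, Mpo, Ltf and Csf3r had 32, 31, 2 and 1 counts in all. The 6 endothelial markers summed to 3.35 to 4.62 CPM in the control and 5.83 to 7.2 with DNTCF4. With EZH2 they summed to 4.28 to 5.36 CPM and with SET to 5.64 to 7.23. The 5 adipocyte markers summed to at most 0.478 CPM. The mammary epithelial list summed to 327 to 371 CPM over all libraries (mostly Krt18 and Krt8, with Krt5 at 2 counts). Between control and DNTCF4, mean Trp63 went from 8.33 to 0.883 CPM, Krt19 from 22.2 to 12.4 and Krt18 from 229 to 247. Mean Epcam was 0.223 CPM with DNTCF4, 0.679 with EZH2 and 0.745 with SET. The spindle or mesenchymal list stood at 10515 to 11422 CPM in the control and at 4753 to 6167 CPM in the other groups, mostly through Fn1 and Col1a1. Within it Prrx1, Zeb1, Zeb2 and Cdh2 had higher means with DNTCF4 than in the control (87.4 against 19.8, 87.2 against 74.2, 119.9 against 106, and 2.03 against 1.67 CPM). Twist1 had no count. Between control and DNTCF4, S100a8 was higher, as were Lcn2, Saa3 and 5 other members, and the mesenchymal sum was lower, as was Cp, and the part of these markers in the members' differences was not tested.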

How the data were processed

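The deposited expected counts are estimated reads per gene made by the authors, and they held whole numbers only. The authors also deposited rlog values, which are regularised log2 counts. The build was GRCm38 and the tools named are STAR 2.7.8a, RSEM 1.3.3, DESeq2, cutadapt 2.3 and FastQC 0.11.8, per the submitters' processing notes, with order, settings and strand not given in the sources used here. RSEM divides a read that fits several genes between them, which makes values of near-copies depend on its model.

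The counts were fitted with edgeR 4.0.16 in R 4.3.3: filterByExpr (minimum count 10, minimum total 15), TMM scaling, 1 fit over 12 libraries with a mean per group, quasi-likelihood test, two-sided, Benjamini-Hochberg over 15052 genes, threshold 0.05 (8 residual degrees of freedom). The script was checked on simulated data. Levels are CPM scaled by TMM factors. A log2 change is the fitted difference. Positions and transcript lengths came from GENCODE on GRCm38, promoters from RefSeq.

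The members, the gene lists and the comparisons were chosen with earlier results of these data known. All members are named. From each list the rule named the 4 genes with the smallest p in DNTCF4 against control and the 2 with the smallest p in each comparison of EZH2 or SET over DNTCF4. Some genes that this rule named are not reported here. Alternatives were DESeq2 1.42.0, its size factors, limma 3.58.1 on rlog values, no filter, only the libraries compared, a replicate block, and each library left out.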

Additional observations from a re-analysis of the deposited data

How the results depend on the processing

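Of 648 log2 differences of the members under other settings, 619 kept their direction and side of the threshold, 23 were no longer called, 3 were newly called and 3 changed sign. The sign changes were of values near 0: Ptx3 for EZH2 over DNTCF4 was 0.010 without DNTCF4 replicate 1 and 0.020 without DNTCF4-EZH2 replicate 1 (range -0.030 to 0.020), and Cfb for SET over DNTCF4 was -0.0073 without DNTCF4 replicate 1 (range -0.0073 to 0.027). The counts of called members for EZH2 against SET, 5 as reported, were 2 to 3 when 1 library was left out and 4 to 7 under the other settings, and those of pathway genes, 8 as reported, were 5 to 7 and 8 to 12. Leaving out a library leaves fewer samples, and any other cause was not tested. In that comparison C3 lost its call in 9 of 12 settings, Saa3 in 6 and Cp in 4. Members called in the other 5 comparisons varied by at most 1. limma on the rlog values, which shrink low counts by construction, gave 0.19 in place of 2.50 for Orm1, 0.59 in place of 1.65 for Hp and 0.37 in place of 1.72 for Serping1 (DNTCF4 against control). Low counts limit Orm1 and Serping1 most.

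Replicate numbers did not pair the libraries: deviations of same-numbered libraries correlated at -0.174 to 0.146, with 1 of 18 pairs over 0.1. With the replicate block, called members were 8 for DNTCF4 against control, 6 for EZH2 over DNTCF4, 8 for SET over DNTCF4 and 4 for EZH2 against SET, where C3 was the gene lost, and all genes called went from 8653 to 8584, from 3841 to 3713, from 3914 to 3736 and from 777 to 638.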
